A study of Mus musculus with 6 samples.

Results

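The genes of the mitochondrial protein import machinery were taken as all protein-coding genes of the deposited count table whose symbols begin with Timm or Tomm followed by a digit. The rule found 24 of 47967 genes in the table, 14 Timm and 10 Tomm genes. RNA was sequenced from the gastrocnemius, a mainly fast-twitch calf muscle, of male C57BL/6 mice aged 20 to 24 weeks. For 12 weeks the normal phosphate group received a diet with 0.6% inorganic and 0.9% total phosphate, and the high phosphate group a diet with 2.0% inorganic and 2.3% total phosphate. Both diets held calcium at 1.9%, sodium at 0.9%, magnesium at 0.3% and potassium at 1.8%. Each diet had 3 libraries, and the labels do not say whether they came from separate mice, so the p-values speak to the spread among these 3 and 3 libraries, part or all of which may be technical.

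Most mitochondrial proteins are encoded in the nucleus, made in the cytosol and carried into the organelle by translocases. The TOM complex of the outer membrane is the common entry gate. Behind it, the small TIM chaperones guide membrane proteins across the intermembrane space, the TIM22 complex inserts carrier proteins into the inner membrane, and the TIM23 complex passes proteins with a cleavable presequence to the matrix, where a motor built on mitochondrial Hsp70 pulls them in. Skeletal muscle holds many mitochondria, and its content of them differs between fibre types.

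Of the 24 genes, 21 had enough counts to be tested. The other 3 were Tomm20l, with 0 counts, Timm8a2, with 1 count in all libraries together, and Tomm6, with 0 to 3 counts per library. The libraries held 21856006 to 27474251 gene counts, and the Tim and Tom genes took 25111 to 31808 of them, 0.114 to 0.134% of a normal phosphate library and 0.105 to 0.117% of a high phosphate library. A count of 0 allowed a level of up to 0.106 to 0.156 CPM (a gene's counts scaled to a common library total), taken at 3 counts, and this limit covers counting error only. Levels below are CPM after TMM normalization, which sets the libraries to a common scale by assuming that most genes do not differ. TMM factors were 1.10 to 1.29 on normal and 0.795 to 0.882 on high phosphate, so directions depended on this scaling, as given with the results. Replicate 2 of the normal phosphate diet had the lowest CPM of all 6 libraries for 17 of the 21 tested genes. How often this held over all genes was not counted.

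On the TMM scale 6 of the 21 tested genes rose on the high phosphate diet and 0 fell. They were Timm23, Timm10, Timm17a, Tomm70a, Timm22 and Tomm40. A gene was called changed where edgeR's quasi-likelihood test gave a Benjamini-Hochberg adjusted p under 0.05 over all 15347 genes tested. The 6 genes were 28.6% of those tested, against 23.0% of all genes called higher and 26.3% called lower, so the share called higher was close to the background. At an unadjusted p under 0.05 edgeR put 8 genes higher and 0 lower. Counts over all genes at an unadjusted p were not taken, here or below. After adjustment DESeq2 called 6 higher and 0 lower, against 3665 and 3802 of 15344 over all genes. Without high phosphate replicate 1, 2 or 3 in turn, edgeR called 3 genes higher, and 0 fell in any of these runs. Over all genes these runs called 2782 of 15957, 2972 of 16017 and 2875 of 16010 higher, and 3370, 3459 and 3399 lower. The median log2 fold change, high over normal phosphate, was 0.22 over the 21 genes and -0.016 over all genes. Positive values were found for 18 genes. Without normal phosphate replicate 2 the median was 0.11 over the 21 genes and -0.020 over all genes, and 14 values were positive. That run called 4 Tim and Tom genes higher and 0 lower, against 3042 and 3452 of 15556 over all genes. With all 6 libraries, the diets did not overlap in 9 of the 21 genes, all with the high phosphate libraries above. Over all 15347 genes, 4656 (30.3%) separated in that direction and 4922 in the other.

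The direction of these genes differed between scalings. With library size alone, counts are scaled by each library's total with no TMM factor. On that scale edgeR called 0 of the 21 genes higher and 7 lower, against 5.72% and 51.3% of all genes. At an unadjusted p under 0.05 these were 0 and 9. Those lower were Timm10b, Timm21, Tomm22, Tomm34, Tomm40l, Tomm5 and Tomm7, at log2 fold changes of -0.50 to -0.39. The median on that scale was -0.24 for the Tim and Tom genes and -0.49 for all genes. On the authors' FPKM values, limma on log2(FPKM + 1) called 0 genes higher and 6 lower (Timm21, Timm22, Timm8a1, Tomm22, Tomm40l and Tomm6), against 4.74% and 37.0% of all genes. At an unadjusted p under 0.05 these were 0 and 10. With this filter on low values the median was -0.24 for 22 Tim and Tom genes and -0.33 for all genes. With no filter, limma called 0 Tim and Tom genes higher and only Tomm22 lower (-0.37, adjusted p = 0.0415), against 1.80% and 15.8% of all genes, and the median of the Tim and Tom genes (-0.24) lay below that of all genes (-0.082). The order of these medians on the FPKM scale thus turned with the filter.

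**Figure D1:**
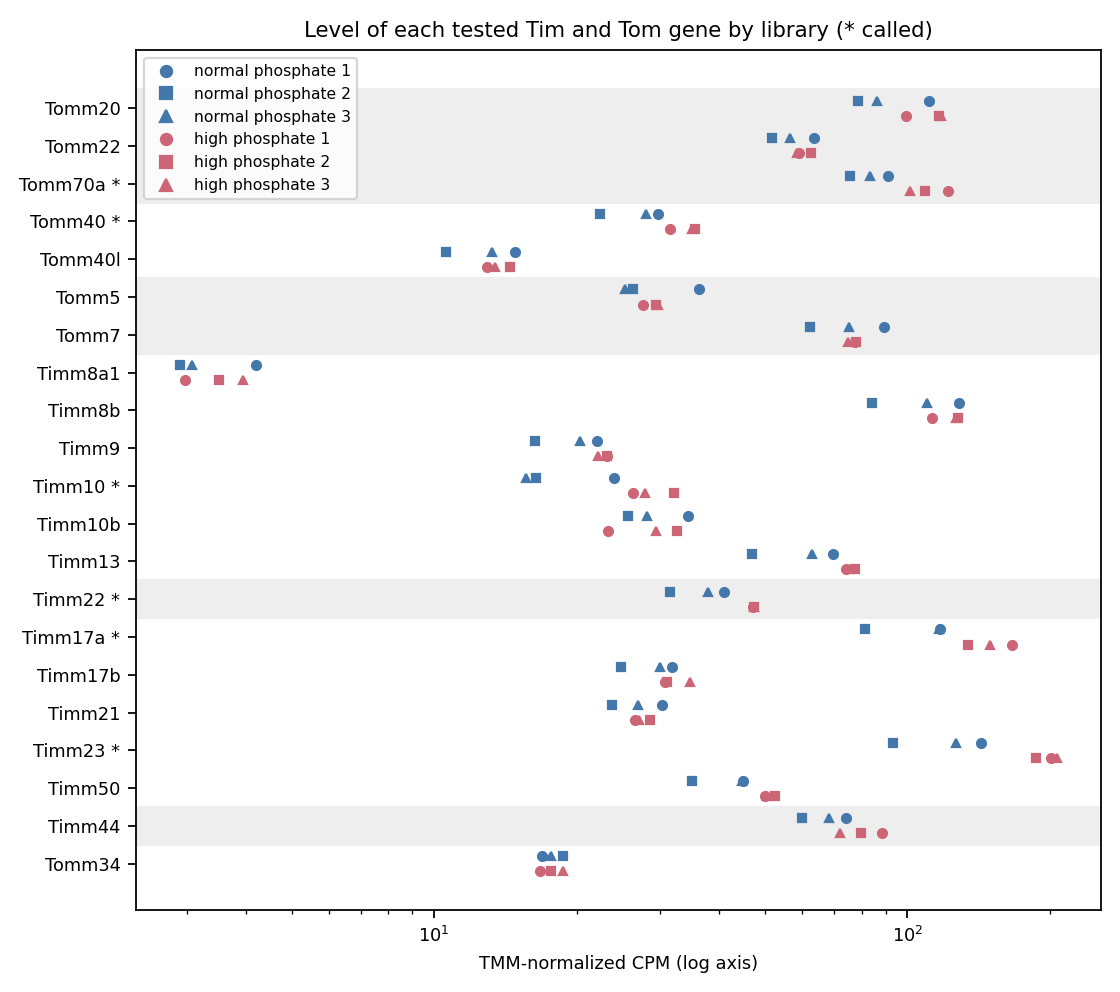
CPM on a log axis (TMM scale) of the 21 tested Tim and Tom genes, grouped by role in shaded bands, with a point for each of the 3 normal and 3 high phosphate libraries and an asterisk at genes called changed. The 6 called genes had all high phosphate points above all normal phosphate points, as in Timm23 (187 to 207 against 93.2 to 143 CPM), while the points of most other genes overlapped.

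The sequences just upstream of 3 of the risen genes and of Tomm22, which did not pass the test, are shown because all hold the letters of an ETS-family site, the motif most frequent among the Tim and Tom promoters searched. The 100 bases before each RefSeq start (GRCm38.p6) are given in the direction of transcription, and capitals mark CCGGAAG or its complement CTTCCGG. They lie at chr2:84826921-84827020 (plus strand) for Timm10, chr14:32201892-32201991 (minus strand) for Timm23, chr16:57121614-57121713 (plus strand) for Tomm70a and chr15:79670768-79670867 (plus strand) for Tomm22.
Timm10: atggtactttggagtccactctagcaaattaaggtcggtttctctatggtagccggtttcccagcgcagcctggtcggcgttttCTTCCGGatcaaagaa
Timm23: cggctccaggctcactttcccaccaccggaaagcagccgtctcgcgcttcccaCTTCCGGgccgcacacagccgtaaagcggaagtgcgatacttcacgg
Tomm70a: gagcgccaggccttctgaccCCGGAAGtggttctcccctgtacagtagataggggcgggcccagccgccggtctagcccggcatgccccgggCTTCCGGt
Tomm22: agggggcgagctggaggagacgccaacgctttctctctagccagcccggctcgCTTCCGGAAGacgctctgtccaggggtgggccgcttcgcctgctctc
Of the 24 genes, 21 had a RefSeq window of 300 bases, from 250 before to 50 after the start. CCGGAAG was found on either strand in 8 of them (Timm10, Timm10b, Timm23, Timm8a2, Timm8b, Tomm22, Tomm34 and Tomm70a), and in 8.86% of all 32851 windows of that length. A Tim or Tom gene was counted if any of its windows matched, while the background counts windows, so these are not like for like. It was present for 3 of the 6 risen genes and for 4 of the 12 tested genes with a window that did not pass the test. In Tomm22 a match on each strand overlapped the other. The NRF1 motif, searched by its consensus on both strands, was in 2 windows (Timm8b and Tomm20), against 4.6% of all. TNAAGGTCA (ERR) was in 1 (Timm8b), against 1.28%, and AAGATGGCG (YY1) in 1 (Timm50), against 1.4%. These matches are descriptions of letters and not of binding.

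Among the receptors of the TOM complex, Tomm70a rose. Tom70 docks carrier precursors handed over by cytosolic chaperones. Its gene (chr16:57121703-57156705, plus strand, GRCm38) had 90.9, 75.7 and 83.5 CPM in normal phosphate replicates 1, 2 and 3 and 122, 109 and 101 CPM in the high phosphate replicates. All high phosphate libraries lay above all normal phosphate libraries. The mean went from 83.4 ± 7.58 to 111 ± 10.4 CPM (SD, n = 3 per diet), which is 0.41 ± 0.12 (SE) in log2 fold change, with an edgeR adjusted p of 0.0184. Without high phosphate replicate 1 the call was lost (0.35, edgeR adjusted p = 0.0641), and with library size alone the value was -0.064. Tomm20, a receptor for presequences, had 78.7 to 111 CPM on normal and 99.2 to 118 CPM on high phosphate (0.27 ± 0.15, edgeR adjusted p = 0.146). Tomm22, the central receptor that also organizes the complex, had 51.9 to 63.6 and 58.3 to 62.6 CPM (0.07 ± 0.11). In both genes the diets overlapped.

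Of the channel genes, Tomm40 rose and its paralog Tomm40l did not pass the test. Tom40 is the beta-barrel through which precursors cross the outer membrane. Tomm40 (chr7:19701313-19715438, minus strand) had 29.7, 22.4 and 28.0 CPM on normal phosphate and 31.5, 35.5 and 35.1 CPM on high phosphate. The diets did not overlap, with normal replicate 1 and high replicate 1 the closest libraries. Its mean was 26.7 ± 3.82 on normal and 34.1 ± 2.19 CPM on high phosphate, 0.35 ± 0.12 in log2 fold change, with an edgeR adjusted p of 0.0413. This call was lost in turn without normal replicate 2 (0.24, edgeR adjusted p = 0.0925), normal replicate 3 (0.38, adjusted p = 0.0612), high replicate 2 (0.33, adjusted p = 0.104) and high replicate 3 (0.34, adjusted p = 0.104), and with library size alone the value was -0.11. Tomm40l (chr1:171216011-171222514, minus strand) had 14.8, 10.6 and 13.3 CPM on normal and 12.9, 14.5 and 13.4 CPM on high phosphate, which overlapped (0.07 ± 0.14). In GENCODE M21, 64.3% of its exonic bases are overlapped by Nr1i3 on the opposite strand, and with no strand setting given their reads cannot be told apart.

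A ratio of paralogs within a library does not depend on the scaling between libraries. The ratio of Tomm40l to Tomm40 counts was 0.50, 0.474 and 0.474 on normal phosphate and 0.410, 0.407 and 0.383 on high phosphate. All high phosphate libraries were lower, with a mean difference of -0.27 on the log2 scale. The two-sided exact permutation test gave p = 0.1, the smallest that 3 against 3 libraries allow, and 0.15 after Benjamini-Hochberg adjustment over 3 ratios. This test therefore cannot reach 0.05 for any ratio. On the authors' FPKM values the difference was -1.10, in which Tomm40 was listed at 7.42 FPKM in normal replicate 1 against 14.6 to 21.4 in the other 5 libraries.

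The small TOM subunits, which stabilize the channel complex, included 0 called genes. Tomm7 had 62.3 to 89.1 CPM on normal and 74.8 to 77.7 CPM on high phosphate (0.02 ± 0.13). Tomm5 had 25.3 to 36.2 and 27.6 to 29.8 CPM (-0.02 ± 0.14). In both, the high phosphate libraries lay inside the range of the normal phosphate libraries. Tomm6 had too few counts for the test, although the authors' FPKM values put it among the measured genes, at 39.1, 35.6 and 43.3 on normal and 25.4, 31.4 and 31.6 on high phosphate. Its 3 high phosphate values were all lower, and limma on log2(FPKM + 1) gave -0.41 ± 0.13 (adjusted p = 0.0422, and 0.0812 with no filter on low values). In GENCODE M21, Gm21981 shares 76.0% of the exonic bases of Tomm6 (chr17:47686646-47688386, minus strand) on the same strand, and whether this overlap set the counts was not tested.

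Tom34, encoded by Tomm34, is a cytosolic co-chaperone of Hsp70 and Hsp90 and not a part of the membrane complex. Tomm34 had 16.9 to 18.8 CPM on normal and 16.8 to 18.7 CPM on high phosphate, nearly the same range (-0.0050 ± 0.10).

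Of the small TIM chaperones, Timm10 rose. Tim9 and Tim10 form the ring that carries hydrophobic precursors through the intermembrane space. Timm10 (chr2:84826997-84830213, plus strand) had 24.0, 16.4 and 15.6 CPM on normal and 26.3, 32.2 and 27.9 CPM on high phosphate. The diets did not overlap, although normal replicate 1 came close to high replicate 1. Its mean rose from 18.7 ± 4.65 to 28.8 ± 3.03 CPM, 0.62 ± 0.17 in log2 fold change, with an edgeR adjusted p of 0.0144. It just missed the threshold without normal replicate 2 (0.54, edgeR adjusted p = 0.0504) and without high replicate 2 (0.55, adjusted p = 0.0510). With library size alone Timm10 was at 0.16 and not called (edgeR adjusted p = 0.431). Its partner Timm9 had 16.3 to 22.1 and 22.1 to 23.2 CPM (0.22 ± 0.13, edgeR adjusted p = 0.165).

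The other 4 tested small TIM genes did not pass the test. Timm13 had 46.9 to 69.6 CPM on normal and 74.3 to 77.5 CPM on high phosphate, without overlap (0.34 ± 0.14, edgeR adjusted p = 0.0705). Tim8 is the ring partner of Tim13, and loss of the human TIMM8A gene causes a deafness and dystonia syndrome. Timm8b had 129, 84.2 and 110 CPM on normal and 113, 128 and 127 CPM on high phosphate, while Timm8a1 had 4.21, 2.90 and 3.07 and then 2.98, 3.51 and 3.94 CPM. Both overlapped between diets (0.19 ± 0.16 and 0.03 ± 0.22). The ratio of Timm8a1 to Timm8b counts was 0.0329, 0.0347 and 0.0281 on normal and 0.0266, 0.0277 and 0.0313 on high phosphate, a difference of -0.16 on the log2 scale (two-sided exact permutation p = 0.2, adjusted 0.2). Of the 50-base stretches of Timm8a1, 41.0% also occur in other genes, mainly Gm9797, so its counts are uncertain. Timm10b, encoding a peripheral TIM22 subunit, had 25.7 to 34.4 and 23.3 to 32.7 CPM (-0.05 ± 0.15). Its deposited identifier carries the name Gm45799 in GENCODE M21, and 95.3% of the exonic bases there are shared with Dnhd1 and Timm10b, so this row may not count Timm10b alone.

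The TIM22 channel gene Timm22 rose on the TMM scale. Timm22 (chr11:76406952-76416292, plus strand) had 41.1, 31.5 and 38.0 CPM on normal phosphate and 47.1, 47.5 and 47.4 CPM on high phosphate. The high phosphate libraries were nearly equal and all above the normal ones. The mean went from 36.9 ± 4.89 to 47.3 ± 0.172 CPM, 0.36 ± 0.11 in log2 fold change, with an edgeR adjusted p of 0.0257. This call was lost without high replicates 1, 2 or 3 in turn (0.38, 0.37 and 0.37, with edgeR adjusted p = 0.0570, 0.0593 and 0.0647). On the FPKM values the sign was opposite and called by limma (-0.45, adjusted p = 0.0268, and 0.0577 with no filter), and with library size alone it was -0.10 and not called.

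Timm29, which encodes another TIM22 subunit, falls outside the symbol rule because the count table lists it under an older name, 1810026J23Rik, and it was found by its Ensembl identifier. It had 64.6, 52.0 and 63.4 CPM on normal and 111, 101 and 100.5 CPM on high phosphate, with no overlap. The mean rose from 60.0 ± 6.98 to 104 ± 5.81 CPM, 0.79 ± 0.12 in log2 fold change, with an edgeR adjusted p of 0.00107. Timm29 (chr9:21592722-21595970, plus strand) was also called higher with library size alone (0.32, adjusted p = 0.0147 by edgeR) and on log2(FPKM + 1) (0.30, limma adjusted p = 0.0355, and 0.0590 with no filter).

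In the TIM23 complex Timm23 and Timm17a rose, and the other 3 subunits did not pass the test. Tim23 and Tim17 form the core of the presequence translocase. Timm23 (chr14:32180162-32201898, minus strand) had 143, 93.2 and 127 CPM on normal and 202, 187 and 207 CPM on high phosphate. The lowest high phosphate library lay well above the highest normal one. The mean rose from 121 ± 25.4 to 198 ± 10.4 CPM, 0.71 ± 0.16 in log2 fold change, with an edgeR adjusted p of 0.00647. Of the 6 called genes, only Timm23 was also called without each library in turn, at 0.56 to 0.86. With library size alone it had the same sign but was not called (0.25, edgeR adjusted p = 0.112). Of its 50-base stretches, 57.5% also occur in other gene models, mainly Gm10273, Gm10171 and Gm10233, so its counts are uncertain.

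Timm17a (chr1:135295213-135313778, minus strand) had 117, 81.3 and 117 CPM on normal and 167, 134 and 149 CPM on high phosphate. The diets did not overlap. Its mean rose from 105 ± 20.5 to 150 ± 16.2 CPM, 0.51 ± 0.16 in log2 fold change, with an edgeR adjusted p of 0.0262. The call was lost without high replicate 1 (0.44, edgeR adjusted p = 0.0875) and without high replicate 3 (0.53, adjusted p = 0.0640). With library size alone Timm17a was at 0.049 and not called (edgeR adjusted p = 0.751). Timm17b, whose product can take the place of Tim17a, had 31.9, 24.8 and 30.0 CPM on normal and 30.8, 31.0 and 34.7 CPM on high phosphate, which overlapped (0.15 ± 0.12). The ratio of Timm17a to Timm17b counts was 3.67, 3.28 and 3.89 on normal and 5.41, 4.32 and 4.30 on high phosphate. It was higher in all 3 high phosphate libraries, by 0.37 on the log2 scale (two-sided exact permutation p = 0.1, the smallest possible, adjusted 0.15).

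The authors' FPKM values gave the opposite sign for Timm17a and for this ratio (-0.78 and -0.57). There high phosphate replicate 2 was listed at 12.3 FPKM, against 70.8 to 84.9 FPKM in the other 5 libraries. The counts of that library gave 134 CPM, below the other high phosphate libraries (149 and 167 CPM) and above all normal phosphate libraries.

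Timm50, the receptor that takes over presequences from TOM, had 44.9, 35.0 and 44.7 CPM on normal and 50.1, 52.5 and 50.4 CPM on high phosphate. Its diets did not overlap, but it missed the threshold (0.30 ± 0.12, edgeR adjusted p = 0.0590). Timm21, which links the complex to TOM and to respiratory chain assembly, had 23.7 to 30.2 and 26.5 to 28.6 CPM (0.02 ± 0.11). Timm44, the tether that holds mitochondrial Hsp70 at the channel, had 59.8 to 74.2 and 71.9 to 88.3 CPM, which overlapped (0.25 ± 0.12, edgeR adjusted p = 0.117).

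The share of each gene within the summed Tim and Tom counts of a library does not depend on the scaling between libraries. TIM23 translocase genes made up 30.1, 29.0 and 32.1% of these counts on normal and 36.0, 32.8 and 35.4% on high phosphate. All high phosphate libraries had the larger share, and Timm23 itself went from 11.7, 10.5 and 11.8% to 15.3, 14.2 and 15.6%. Small TOM subunits made up 10.3, 9.99 and 9.34% on normal and 7.98, 8.12 and 7.91% on high phosphate, lower in all 3 libraries. For both roles and for TIM22, the two-sided exact permutation p was 0.1, the smallest 3 against 3 allow, and 0.267 after adjustment over 8 roles. In the other 5 roles the shares overlapped. Since shares sum to a fixed total, a larger share of one gene lowers those of the rest. By gene, the shares of Timm10, Timm22 and Timm23 were higher without overlap, and those of Timm10b, Timm21, Timm9, Tomm22, Tomm40l, Tomm5 and Tomm7 were lower without overlap. For each of these the two-sided exact permutation p was 0.1, and 0.21 after adjustment over 21 genes. Timm22 separated narrowly, at 3.37 to 3.54% on normal and 3.57 to 3.60% on high phosphate.

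**Figure D2:**
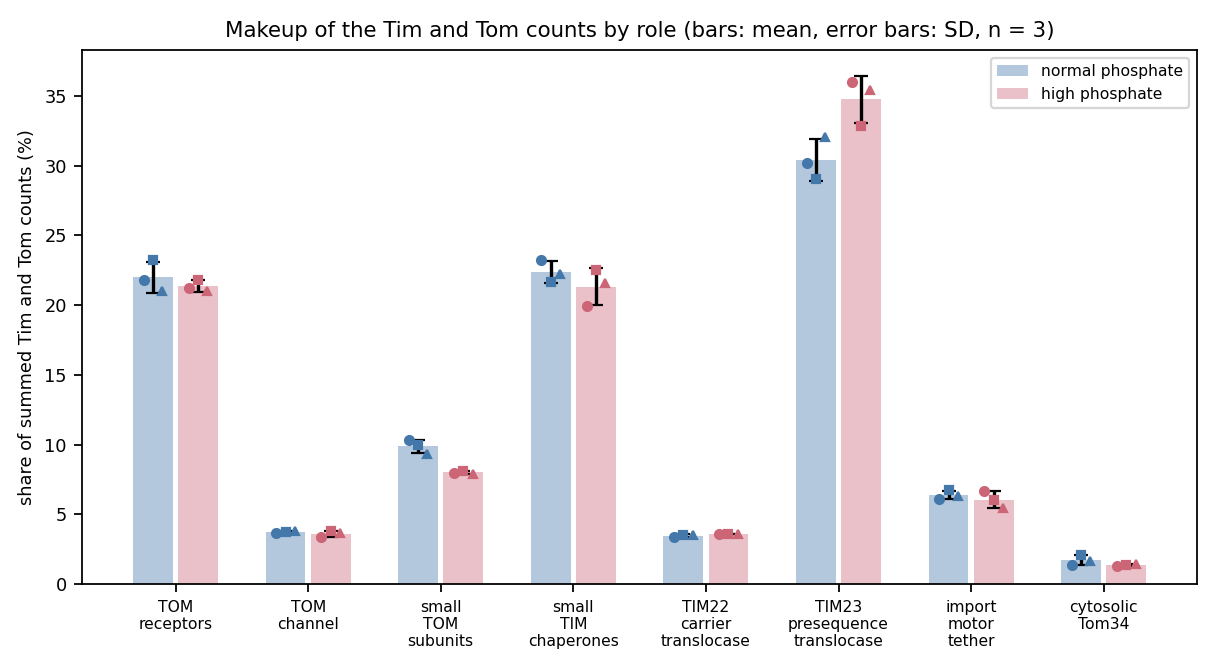
Share of each role in the summed Tim and Tom counts of a library, in percent, with bars at the mean of 3 libraries, error bars of 1 SD and a point per library. The TIM23 translocase took 34.7 ± 1.71% on high against 30.4 ± 1.52% on normal phosphate, and the small TOM subunits 8.0 ± 0.107% against 9.88 ± 0.489%.

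When edgeR was refitted with libraries scaled to their summed Tim and Tom counts, Timm23 was the only gene of the 21 called higher (0.41 ± 0.11, adjusted p = 0.0144), and 0 were called lower (1 higher and 2 lower at an unadjusted p under 0.05). Over all genes, 7.84% were called higher and 35.2% lower on that scale. Scaled to the summed counts of nuclear-encoded respiratory subunits, edgeR again called only Timm23 among the 21 (0.43 ± 0.17, adjusted p = 0.0478), against 6.09% of all genes called higher and 29.8% lower. Timm29, outside the rule, was called on both scales (0.47 and 0.49, edgeR adjusted p = 0.00898 and 0.0402). These scalings were chosen after seeing the data.

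**Figure D3:**
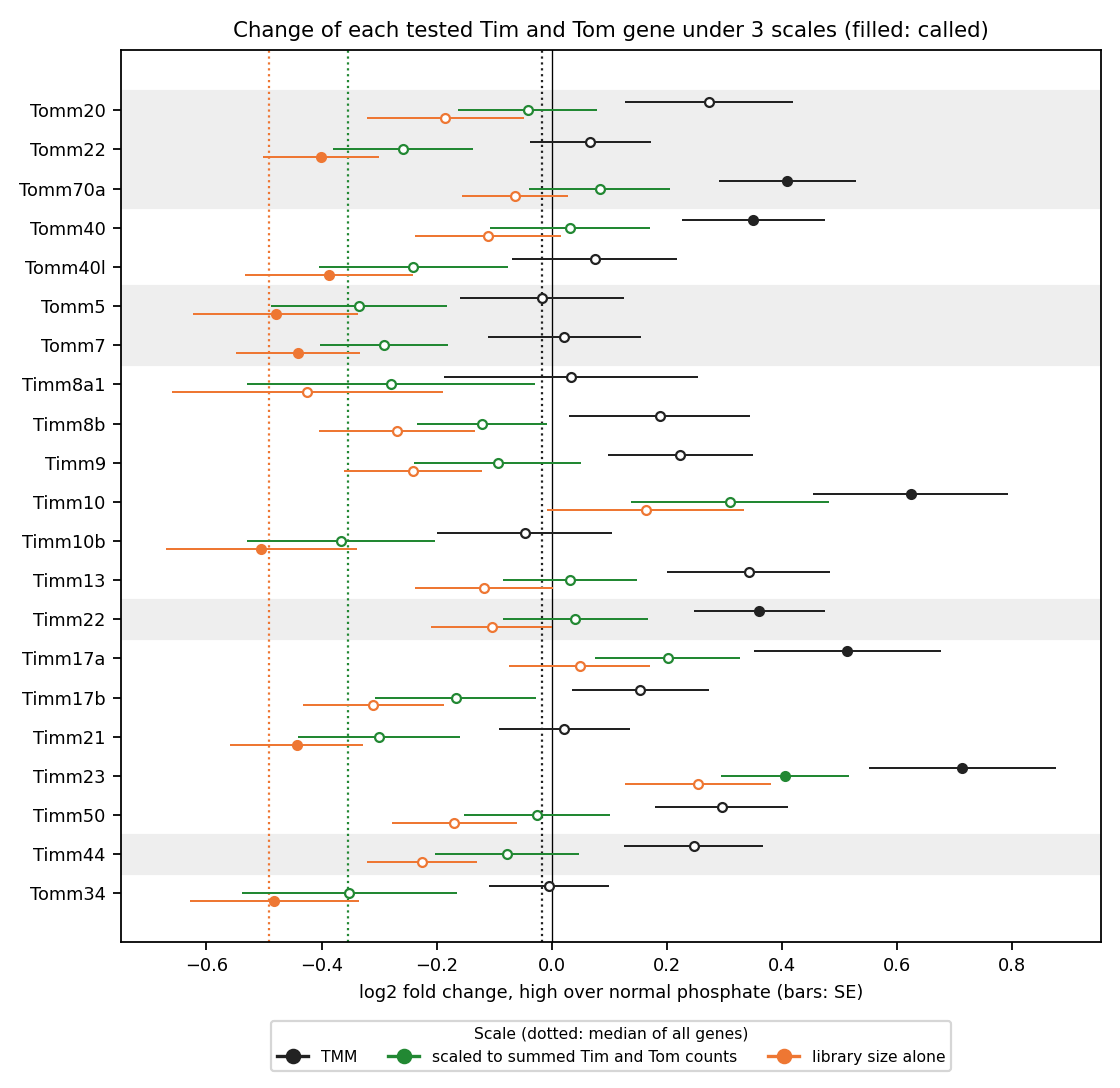
Log2 fold change (high over normal phosphate) ± SE of each tested Tim and Tom gene under 3 scalings: TMM, summed Tim and Tom counts, and library size alone. Filled points were called by edgeR and dotted lines mark the median of all genes. Timm23 lay at 0.71 under TMM, 0.41 under the Tim and Tom sum and 0.25 with library size alone, where it was not called.

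Levels can be compared between genes only per length, for which the authors' FPKM values were used. Over the 6 libraries the median was highest for Timm8b (195 FPKM), followed by Timm23 (129), Timm17a (81.3) and Tomm7 (60.3). The lowest detected were Timm10b (4.82), Tomm34 (6.56) and Timm8a1 (6.58 FPKM). The Timm10b value is that of the Gm45799 identifier described above, so it may not give the level of Timm10b alone. Timm8b exceeded Timm8a1 and Timm17a exceeded Timm17b (10.7 FPKM) in each library. Tomm40 (16.2) exceeded Tomm40l (11.3) except in normal replicate 1 (7.42 against 12.9 FPKM) and normal replicate 2 (15.7 against 16.1 FPKM). In these the FPKM value of Tomm40 (replicate 1) or Tomm40l (replicate 2) departed from its counts, as given below. Channel, receptor and motor genes lay between, such as Tomm22 (46.6), Timm44 (31.8), Timm22 (23.5), Timm50 (22.8), Tomm70a (19.7) and Tomm20 (18.4 FPKM).

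The FPKM and count tables did not give the same pattern for every gene. For 15 of the 21 tested genes, the ratio of FPKM to CPM stayed within 1.2-fold of the gene's median in all libraries. CPM for this ratio used library size alone, without the TMM factors. The exceptions were Timm17a in high replicate 2 (0.167 of its median), Tomm7 in high replicate 3 (2.93 times, at 142 FPKM against 45.4 to 70.3 in the others), Tomm40 in normal replicate 1 (0.419, at 7.42 FPKM) and high replicate 1 (1.58), Tomm40l in normal replicate 2 (1.42), Timm13 in high replicate 1 (1.25) and Timm22 in normal replicate 2 (just over 1.2) and high replicate 2 (0.764). The cause of these differences was not tested.

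**Figure D4:**
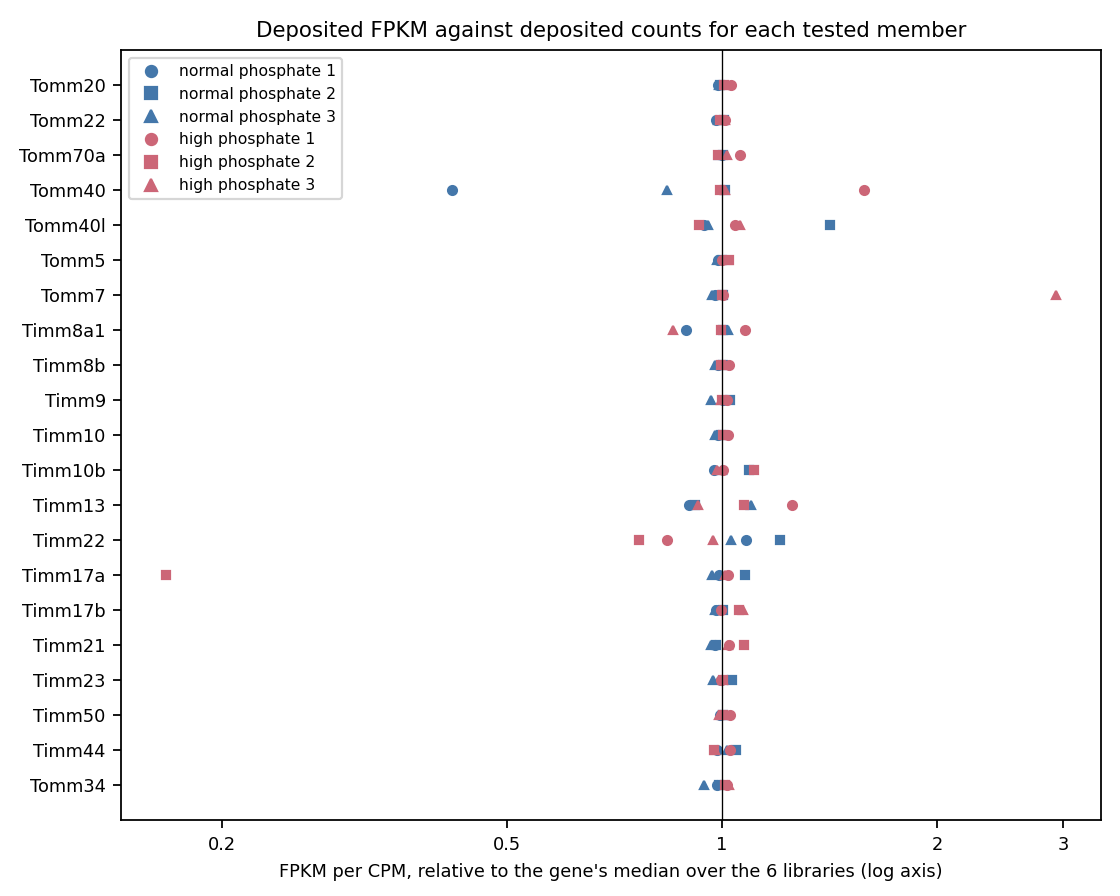
Ratio of the authors' FPKM to CPM by library size alone (no TMM factor) in each library. Values are relative to the gene's median over 6 libraries, for the 21 tested genes. Most points lie near 1, and Timm17a in high replicate 2 (0.167) and Tomm7 in high replicate 3 (2.93) stand far from it.

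The other import genes, a list of 30 covering the motor, peptidases, oxidative folding, sorting and matrix folding, were all tested. With TMM, edgeR called 12 higher (40%, against 23.0% of all genes) and 1 lower (against 26.3% of all genes), with a median log2 fold change of 0.28. Without high phosphate replicate 1 it called 7 higher and 0 lower, against 2782 and 3370 of 15957 over all genes. With library size alone it called 3 higher and 7 lower, against 5.72% and 51.3% of all genes, and the median was -0.18. Gfer, the sulfhydryl oxidase that recycles the import receptor Chchd4, had 17.6, 16.0 and 18.2 CPM on normal and 43.5, 41.3 and 47.0 CPM on high phosphate. All 3 high phosphate libraries were higher, and Gfer rose by 1.35 ± 0.10 in log2 fold change (edgeR adjusted p = 0.000132). Chchd4 rose from 20.0 ± 2.64 to 27.0 ± 0.391 CPM (0.44 ± 0.12, edgeR adjusted p = 0.0131), but its value was -0.03 with library size alone. Gfer, the presequence-trimming peptidase Mipep (0.79 ± 0.14, edgeR adjusted p = 0.00218) and the mitochondrial Hsp90 Trap1 (0.83 ± 0.15, edgeR adjusted p = 0.00247) were called higher on both scales.

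Pmpca, a subunit of the main processing peptidase, rose from 102 ± 14.9 to 162 ± 14.8 CPM (0.67 ± 0.14, edgeR adjusted p = 0.00457). With library size alone Pmpca was at 0.20 and not called. Hspa9, the Hsp70 of the import motor that Timm44 tethers, rose from 386 ± 56.7 to 614 ± 88.3 CPM (0.67 ± 0.18, edgeR adjusted p = 0.0134). It missed the threshold without high replicate 1 (0.58, edgeR adjusted p = 0.0513), and with library size alone it was at 0.20 and not called. Hspd1, the matrix chaperonin, rose from 120.1 ± 14.8 to 188 ± 27.7 CPM (0.64 ± 0.15, edgeR adjusted p = 0.00740), but was at 0.17 and not called with library size alone. Mtch1, an outer membrane protein of the carrier family, was the only one that fell, from 116 ± 11.1 to 83.9 ± 7.62 CPM (-0.47 ± 0.12, edgeR adjusted p = 0.0111), and it missed the threshold without high replicate 1 (-0.39, adjusted p = 0.0540) or 3 (-0.44, adjusted p = 0.0508). Beside these, 9 of 83 nuclear-encoded respiratory subunits were called higher and 4 lower (median 0.25), and 31 of 76 mitochondrial ribosomal protein genes higher and 0 lower (median 0.33). These were 10.8% and 40.8% called higher, against 23.0% of all genes, which had 26.3% called lower. With library size alone edgeR called 0 respiratory subunits higher and 22 lower (median -0.20), and 0 ribosomal protein genes higher and 12 lower (median -0.14), against 5.72% and 51.3% of all genes.

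Markers of cell and fibre types also moved with diet on the TMM scale, where edgeR called 23.0% of all genes higher and 26.3% lower. Their calls with library size alone were not taken. Fast fibre markers rose in 7 of 8 genes, with summed levels of 42371 to 63190 CPM on normal and 128926 to 167454 CPM on high phosphate. Skeletal muscle markers rose in 5 of 7, but that list shares Myh4 and Tnnt3 with the fast fibre list. Slow fibre markers fell in 6 of 7 genes (2018 to 2938 against 824 to 1256 CPM). White adipocyte markers fell in 7 of 8 (3203 to 3763 against 1389 to 2088 CPM), fibroblast markers in 6 of 6 (4224 to 10059 against 2140 to 2374 CPM), macrophage markers in 5 of 6 with 1 higher, and endothelial, B cell and T cell markers in 5 of 5 each. None of the markers was at 0 in all libraries. In bulk muscle, fewer cells of a type and less RNA per cell cannot be told apart, and the part of these shifts in the Tim and Tom values was not tested.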

How the data were processed

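Per the labels' protocols, TRIzol was used for total RNA and the libraries were read on Illumina sequencers. The authors deposited raw read counts per gene and FPKM values (38011 genes). Per the submitters' processing notes, featureCounts 1.4.6, DESeq2 1.6.3, HISAT2 2.0.1 and Trim Galore 0.4.1 were used with the GRCm38 build, in roles not listed there. The annotation release, strand setting and FPKM tool were not given in the sources used here. Libraries were grouped from the sample labels, and none was left out.

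Counts were tested with edgeR 4.0.16 (R 4.3.3): TMM, filterByExpr, robust quasi-likelihood F tests and Benjamini-Hochberg adjustment over 15347 genes, called at 0.05. Standard errors are the fold change divided by the square root of F, which is approximate. FPKM values were tested with limma 3.58.1 with a trend on log2(FPKM + 1), at a mean of at least 0.5 FPKM; fold changes on that scale understate those of low genes. Paralog ratios used counts plus 0.5, where both genes had 10 or more in each library. The fits were tested on simulated data, in which 67, 67 and 66 genes changed 1.5-, 2- and 4-fold. Of the calls there at an adjusted p under 0.05, 13.99% were false with edgeR and 22.67% with DESeq2. With limma on log2(value + 1), 15.28% were false. edgeR recovered 26.87% of the 1.5-fold and 61.19% of the 2-fold changes. The simulation changed only the 67, 67 and 66 genes, with 15109 tested by edgeR, while 7563 of 15347 genes were called in the measured data. It therefore cannot give the share of false calls under so broad a shift, or under another scaling. Gene positions and overlaps came from GENCODE M21, and promoters from RefSeq. All 37 mitochondrially encoded genes had 0 counts.

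All Tim and Tom genes were named, with values in every library for those called or in a paralog ratio. Of the other import genes, up to 4 per direction by smallest p were named, plus Hspa9, Hspd1 and Chchd4. Some FPKM outliers and gene overlaps were named after their values were seen. Members and lists were chosen with earlier results of these data known. Alternatives were other size factors, library size alone, other filters and thresholds, DESeq2 1.42.0, FPKM, the replicate number as a block, leaving out each library, and 2 scalings to summed gene sets.

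Marker lists with 0 or 1 called gene, in CPM summed over the list on normal and on high phosphate, were smooth muscle (320 to 355 and 244 to 334, 0 called of 4), erythroid (214 to 391 and 114 to 726, 0 of 5), Schwann cell (236 to 295 and 216 to 318, 1 lower of 5) and tendon (43.5 to 109 and 15.7 to 25.7, 1 lower of 3).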

Additional observations from a re-analysis of the deposited data

How the results depend on the processing

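Median-ratio size factors, no filter, a filter of 1 CPM in 3 libraries, DESeq2 and the replicate block left 5 to 7 Tim and Tom genes called higher and 0 lower. Over all genes these settings called 3340 to 3665 higher and 3802 to 4288 lower, of 13771 to 28193 tested. An adjusted p under 0.1 gave 8 higher and 0 lower, against 4287 and 4686 of 15347 over all genes. Deviations from the group mean hardly correlated between same-numbered replicates (-0.0079, 0.029 and 0.012). The labels do not say whether same-numbered samples were paired, and these correlations cannot settle it. With the replicate block 5 genes were called, since Tomm40 was lost (0.36, edgeR adjusted p = 0.0586), and Tomm5 was at 0.00078. Tomm34 changed sign with median-ratio factors (0.0079), no filter (0.012) and DESeq2 (0.0076). Leaving out each library in turn gave 3 to 9 Tim and Tom genes higher and 0 lower. Among other import genes these runs gave 7 to 18 higher and 0 to 1 lower. Over all genes they called 2782 to 3501 higher and 3370 to 4075 lower, of 15556 to 16017 tested. Without 1 library, log2 fold changes spanned zero for Timm10b (-0.14 to 0.092), Timm21 (-0.063 to 0.11), Timm8a1 (-0.069 to 0.22), Tomm22 (-0.00029 to 0.15), Tomm34 (-0.036 to 0.046), Tomm40l (-0.049 to 0.19), Tomm5 (-0.12 to 0.17) and Tomm7 (-0.10 to 0.16).

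With library size alone 0 Tim and Tom genes were higher and 7 lower, and 3 other import genes higher and 7 lower. Signs reversed for Timm13 (-0.12), Timm17b (-0.31), Timm21 (-0.44), Timm22 (-0.10), Timm44 (-0.23), Timm50 (-0.17), Timm8a1 (-0.42), Timm8b (-0.27), Timm9 (-0.24), Tomm20 (-0.18), Tomm22 (-0.40), Tomm40 (-0.11), Tomm40l (-0.39), Tomm7 (-0.44), Tomm70a (-0.064) and Chchd4 (-0.03).

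On log2(FPKM + 1) and log2(FPKM + 0.1), 0 Tim and Tom genes were higher and 6 lower, and 3 other import genes higher and 2 lower. With no filter on low values these were 0 and 1 for Tim and Tom genes, and 1 other import gene was higher. With pseudocounts of 1 (with or without the filter) and 0.1, signs reversed for Timm17a (-0.78 and -0.81), Timm17b (-0.22 and -0.24), Timm21 (-0.33 and -0.35), Timm22 (-0.45 and -0.47), Timm44 (-0.25 and -0.26), Timm50 (-0.15 and -0.16), Timm8a1 (-0.37 and -0.42), Timm8b (-0.24 in both), Timm9 (-0.22 and -0.23), Tomm20 (-0.15 in both), Tomm22 (-0.37 and -0.38), Tomm40l (-0.45 and -0.49), Tomm70a (-0.030 and -0.031) and Chchd4 (-0.014 and -0.017). On FPKM the log2 difference in the ratio was -0.57 for Timm17a to Timm17b and -1.10 for Tomm40l to Tomm40 (-0.27 on counts). Scaled to the summed Tim and Tom counts or the summed respiratory subunit counts, 1 gene was higher. A filter of 1 CPM and an adjusted p under 0.1 each gave 2 other import genes lower. Except for the scalings themselves, the cause was not tested. At 3 libraries per diet no exact test could pass 0.05, and tested genes had 65 to 4404 counts per library, the fewest in Timm8a1.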

Other observations

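Tomm6 had 0 to 3 counts per library and entered no count test, but was listed at 25.4 to 43.3 FPKM in the deposited FPKM table. The source of this difference between the tables was not tested.

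Several gene models that share sequence with Tim and Tom genes also had FPKM values with almost no counts. Gm21981, which overlaps Tomm6, had 0 to 2 counts and 10.7 to 16.9 FPKM per library, and the antisense gene Tomm6os 2 to 12 counts and 1.13 to 2.55 FPKM. Gm10273, Gm10171 and Gm10233, which share stretches with Timm23, had 2 to 11, 0 to 1 and 0 counts, and 18.0 to 46.1, 12.1 to 17.5 and 15.2 to 21.1 FPKM. Nr1i3, opposite Tomm40l, had 0 to 3 counts and 4.27 to 5.61 FPKM. Gm9797, which shares stretches with Timm8a1, had 0 to 3 counts and 4.37 to 6.75 FPKM.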
